A study of Mus musculus with 10 samples.

Results

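Transcripts of the liver's myeloid cells were examined through 41 marker genes of Kupffer cells, monocytes and neutrophils, chosen by symbol from the 23056 rows of the gene count table. All 41 were present in it. By the cell type each is best known from, 13 were grouped as resident macrophage genes, 5 as recruited monocyte genes, 13 as genes shared by myeloid cells and 10 as neutrophil genes. Of the 10 libraries, 6 were labelled as wild-type (WT) mouse liver and 4 as Ifrd1 knockout (KO) mouse liver. Each library is called a liver below. All were labelled as 12 hours after partial hepatectomy, the surgical removal of liver lobes. There was no liver without surgery, so every value below describes the regenerating organ. The labels state the genotypes as WT and IFRD1-KO and do not give the strain, age, sex, allele or the cells that lost the gene. Nothing in them ties a library to a named animal, so the p-values below set the difference between groups against the spread between libraries.

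Kupffer cells are the macrophages that live in the liver sinusoids, where they take up debris, bacteria and old red cells from the blood. After part of the liver is removed they are known as a source of cytokines that prepare hepatocytes to divide. Monocytes and neutrophils arrive from the blood, monocytes through the chemokine receptor Ccr2 and neutrophils through Cxcr2. The macrophage, monocyte and neutrophil lineages all depend on the transcription factor PU.1, encoded by Spi1, and neutrophils further on C/EBP factors. The submitters' stated purpose was to study the role of Ifrd1, a transcriptional co-regulator, in liver regeneration.

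Library totals lay between 12307446 and 17098012 counts, of which the 41 genes took between 2220 and 11271. Values are given as CPM, a gene's count scaled to a common library size, with library sizes adjusted by edgeR's TMM method. Ifrd1 itself was at 81.7, 71.8, 40.2, 49.6, 60.2 and 48.9 CPM in WT 1 to 6 and at 13.02, 22.6, 20.8 and 21.6 CPM in KO 1 to 4, so the groups did not overlap in the labelled gene and some Ifrd1 reads were counted in every KO library. Over all 13688 genes with enough counts to test, edgeR's quasi-likelihood test called 182 at a Benjamini-Hochberg adjusted p under 0.05, which is 1.33% of them. Unadjusted p-values were under 0.05 in 26.0% of the genes tested, and in 6.90% every WT library lay on one side of every KO library. In a principal component analysis of the genes tested, on log2(CPM + 0.5), WT 4 had a score of 36.0 on the leading axis, beside the KO livers at 37.5 to 41.02 and away from the other WT livers, which ran from -69.4 in WT 2 to -10.2 in WT 3. WT 2 was the highest liver for most of the 41 genes. The library labelled WT 4 thus lay nearer the KO livers than the other WT livers, and leaving out WT 4 raised the number of genes called from 182 to 2893.

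The promoters of 32 of the 41 genes were found in the RefSeq table of build GRCm38.p6, as windows of 300 bases that start 250 bases before the annotated transcription start. A few are shown because most members were highest in the same liver, WT 2. Words of PU.1 and C/EBP were searched as factors known from these lineages, and their part in the values was not tested. The 8-letter word GAGGAAGT, a common form of the PU.1 site, was searched on both strands. It was found in the windows of 6 members, 18.8% of the 32, namely C1qc, Fcgr4, S100a8, Mpo, Ly6g and Mmp8. Of the 27025 genes with a window in the table, 3.69% held it. The shorter core GAGGAA, which lies inside that word, was found for 19 of the 32 genes (59.4%), some of which have more than 1 window, and in 31.3% of all genes. The C/EBP word TTGCNNAA was found for 6 of the 32 genes (18.8%) and in 12.2% of all genes. One resident macrophage gene, one Fc receptor gene and one neutrophil gene are printed below, 5′ to 3′ along the gene, with the start site right after base 250 of the window and the PU.1 word in capitals. In all 3 it is read on the opposite strand, so it appears as ACTTCCTC. It begins at base 56 of the C1qc window (chr4:136892865-136893164, minus strand), at base 227 of the Fcgr4 window (chr1:171018676-171018975, plus strand) and at base 79 of the S100a8 window (chr3:90668821-90669120, plus strand). The window of Clec4f (chr6:83656067-83656366, minus strand), the most Kupffer-restricted member, is printed beside them because these letters are not in it. A match describes the letters only; no binding was measured.
C1qc: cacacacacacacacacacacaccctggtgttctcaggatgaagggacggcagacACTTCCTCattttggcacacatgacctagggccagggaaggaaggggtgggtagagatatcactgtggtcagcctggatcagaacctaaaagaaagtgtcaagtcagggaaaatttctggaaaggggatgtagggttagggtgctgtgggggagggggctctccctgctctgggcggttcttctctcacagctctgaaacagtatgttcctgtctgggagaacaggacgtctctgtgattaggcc
Fcgr4: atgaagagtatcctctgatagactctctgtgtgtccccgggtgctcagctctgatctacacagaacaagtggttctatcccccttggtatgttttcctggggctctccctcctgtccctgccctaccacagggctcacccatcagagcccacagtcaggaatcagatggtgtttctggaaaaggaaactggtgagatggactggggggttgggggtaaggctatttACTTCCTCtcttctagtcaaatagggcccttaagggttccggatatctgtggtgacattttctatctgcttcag
S100a8: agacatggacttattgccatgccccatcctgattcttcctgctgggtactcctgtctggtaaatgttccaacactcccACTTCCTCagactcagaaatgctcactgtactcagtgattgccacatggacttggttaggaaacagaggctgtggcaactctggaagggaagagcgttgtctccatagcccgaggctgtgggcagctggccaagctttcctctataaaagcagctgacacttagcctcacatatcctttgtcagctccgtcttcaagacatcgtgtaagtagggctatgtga
Clec4f: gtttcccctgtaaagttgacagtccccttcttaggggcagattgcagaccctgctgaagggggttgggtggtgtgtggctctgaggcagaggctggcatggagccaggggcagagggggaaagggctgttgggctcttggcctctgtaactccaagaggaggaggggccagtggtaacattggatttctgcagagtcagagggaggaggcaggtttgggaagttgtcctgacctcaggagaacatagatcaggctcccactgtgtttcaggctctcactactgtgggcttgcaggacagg

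Of the 6 members with the highest level per transcript length in WT, 4 were resident macrophage genes. Divided by the exonic length of each gene in GENCODE, the WT mean was 21.1 CPM per kb for C1qa and 19.1 for C1qb, 2 chains of the complement component C1q that macrophages secrete. It was 17.4 CPM per kb for Clec4f, a C-type lectin restricted to Kupffer cells in the mouse, and 14.2 for Marco, a scavenger receptor for bacteria. The other two were the neutrophil alarmins S100a9, at 37.0 CPM per kb, and S100a8, at 20.4. Both rested on WT 2: over the other 5 WT livers S100a9 averaged 13.8 CPM per kb and S100a8 10.3, against 15.1 for C1qa, then the highest member. The general macrophage marker Adgre1, which encodes F4/80, was low, at 0.35 CPM per kb. The defining Kupffer cell markers were thus present in every library, and T and NK cell markers were nearly absent, summing to between 1.92 and 3.86 CPM over 16 genes in WT and between 2.54 and 3.61 CPM in KO.

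Summed over the 13 resident macrophage genes, the level was 198 ± 117 CPM in WT (SD, n = 6) and 97.2 ± 21.1 CPM in KO (SD, n = 4). The WT sums ran from 83.6 CPM in WT 4 to 411 CPM in WT 2, and the KO sums from 71.3 to 122 CPM. WT 1, 2, 5 and 6 lay above every KO liver, while WT 3 and WT 4 lay within the KO range. In whole-liver RNA, fewer cells of a type and less RNA per cell cannot be told apart, here or for any gene below. In the plot of summed levels by liver, WT 1, 2, 5 and 6 also lie above every KO liver for the shared and the neutrophil genes, but not for the monocyte genes.

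**Figure D1:**
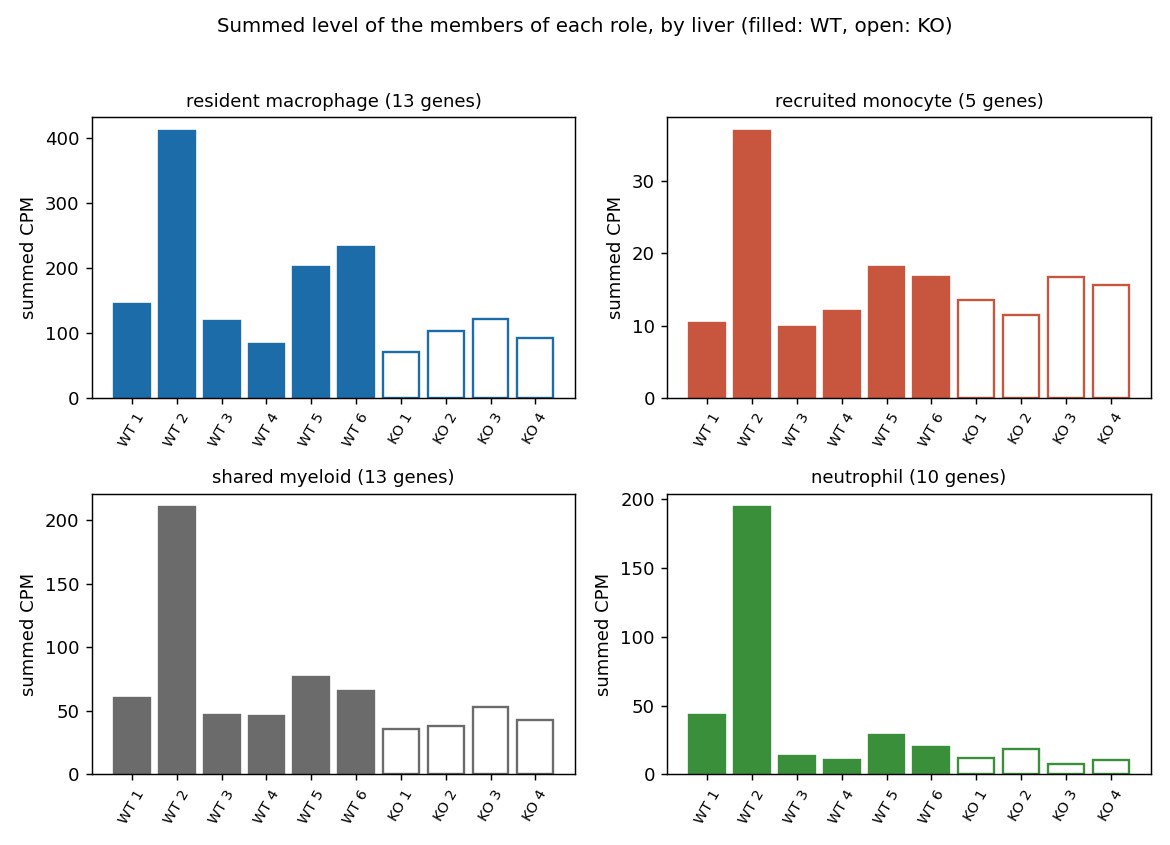
Summed CPM of the members of each role (vertical axis, from 0) in each of the 6 WT livers (filled bars) and 4 KO livers (open bars), 1 bar per liver. WT 2 is the highest liver in all 4 panels, at 411 CPM for resident macrophage genes and 194 CPM for neutrophil genes, and the KO bars lie between 71.3 and 122 CPM and between 7.38 and 18.6 CPM in those panels.

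All 12 of the resident macrophage genes that could be tested had a log2 fold change below 0 in KO against WT, and none passed the test over all genes with edgeR. Their median was -1.03 and their range -1.48 to -0.30, against a median of -0.016 over all genes tested. Unadjusted p-values were under 0.05 for 7 of the 12 (58.3%, beside 26.0% of all genes), and the smallest adjusted p was 0.0870. By DESeq2 3 of the 12 passed, Clec4f, C1qa and C1qb, in a test that called 11.8% of all genes. With limma-voom none passed, and with sample weights the same 3 names did, beside 19.0% of all genes. The thirteenth gene, Folr2, a folate receptor of resident macrophages, had too few counts, at no more than 1.36 CPM in any liver.

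Clec4f was at 28.9, 107, 23.8, 10.2, 45.1 and 43.6 CPM in WT 1 to 6 and at 9.05, 14.1, 23.8 and 16.6 CPM in KO 1 to 4. Only WT 1, 2, 5 and 6 exceeded the highest KO liver, and WT 4 lay among the lowest livers of either group. This gave a log2 fold change of -1.44 (SE 0.55, 95% interval -2.52 to -0.36), with an adjusted p of 0.136 from edgeR.

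C1qa and C1qb lie side by side with C1qc on chromosome 4, at chr4:136895917-136898803, chr4:136880129-136886187 and chr4:136889804-136893065, all on the minus strand of GRCm38. C1qa was at 15.0, 53.4, 13.9, 9.80, 18.6 and 21.3 CPM in WT 1 to 6 and at 5.90, 7.94, 10.8 and 8.64 CPM in KO 1 to 4. WT 4 was the only WT liver inside the KO range. In the fit, the C1qa log2 fold change was -1.40 (SE 0.43), with an adjusted p of 0.0870 from edgeR and an unadjusted exact permutation p of 0.0190 (two-sided) on log2(CPM + 0.5). C1qb was at 14.8, 53.2, 10.7, 6.67, 19.0 and 20.4 CPM in WT and at 5.96, 6.63, 10.1 and 7.15 CPM in KO, again with WT 4 alone inside the KO range. Its log2 fold change was -1.48 (SE 0.50), with an adjusted p of 0.104 from edgeR. C1qc, with the promoter shown above, had a log2 fold change of -1.11 (SE 0.47) and an adjusted p of 0.161 from edgeR. The 3 chains form 1 protein, and for each of them WT 2 was the highest and KO 1 the lowest liver.

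The other named Kupffer cell genes differed less between the group means. Marco ranged from 9.05 CPM in WT 4 to 47.5 CPM in WT 6, with a WT median of 25.8, and stood at 7.12, 22.7, 11.1 and 11.3 CPM in KO 1 to 4. This was 1 of the 2 resident macrophage genes whose highest liver was WT 6 and not WT 2. The other was Cd5l, a secreted inhibitor of apoptosis made by tissue macrophages, at 10.1 to 33.0 CPM in WT (median 20.2) and at 8.83, 13.6, 17.4 and 11.9 CPM in KO. Vsig4, a complement receptor that clears opsonised particles, was at 3.27 to 18.3 CPM in WT (median 5.55) and at 2.26, 3.85, 4.99 and 3.54 CPM in KO. Timd4, a phosphatidylserine receptor of long-lived Kupffer cells, was at 0.88 to 4.69 CPM in WT (median 1.41) and at 1.27, 0.85, 1.69 and 1.00 CPM in KO. The WT and KO livers overlapped in all 4 genes. The log2 fold changes were -1.07 for Marco, -1.02 for Vsig4, -0.73 for Timd4 and -0.65 for Cd5l, with adjusted p-values from edgeR between 0.169 for Marco and 0.362 for Timd4.

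Differences were smaller for Mertk and Adgre1. Mertk, a kinase receptor for apoptotic cells that other cells also carry, was at 11.8 to 20.7 CPM in WT (median 14.7) and at 12.7, 12.5, 16.4 and 9.83 CPM in KO. Its fitted log2 change, KO minus WT, was -0.30 (SE 0.22), with an adjusted p of 0.400 from edgeR. Adgre1 was at 0.54 to 2.27 CPM in WT (median 0.89) and at 0.33, 0.69, 1.08 and 1.18 CPM in KO, with a log2 fold change of -0.49 (SE 0.48). The groups overlapped in both genes. Also tested were Cd163, the haemoglobin scavenger receptor, with a log2 fold change of -1.04 (SE 0.44), and Axl, a relative of Mertk, with -0.38 (SE 0.22).

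**Figure D2:**
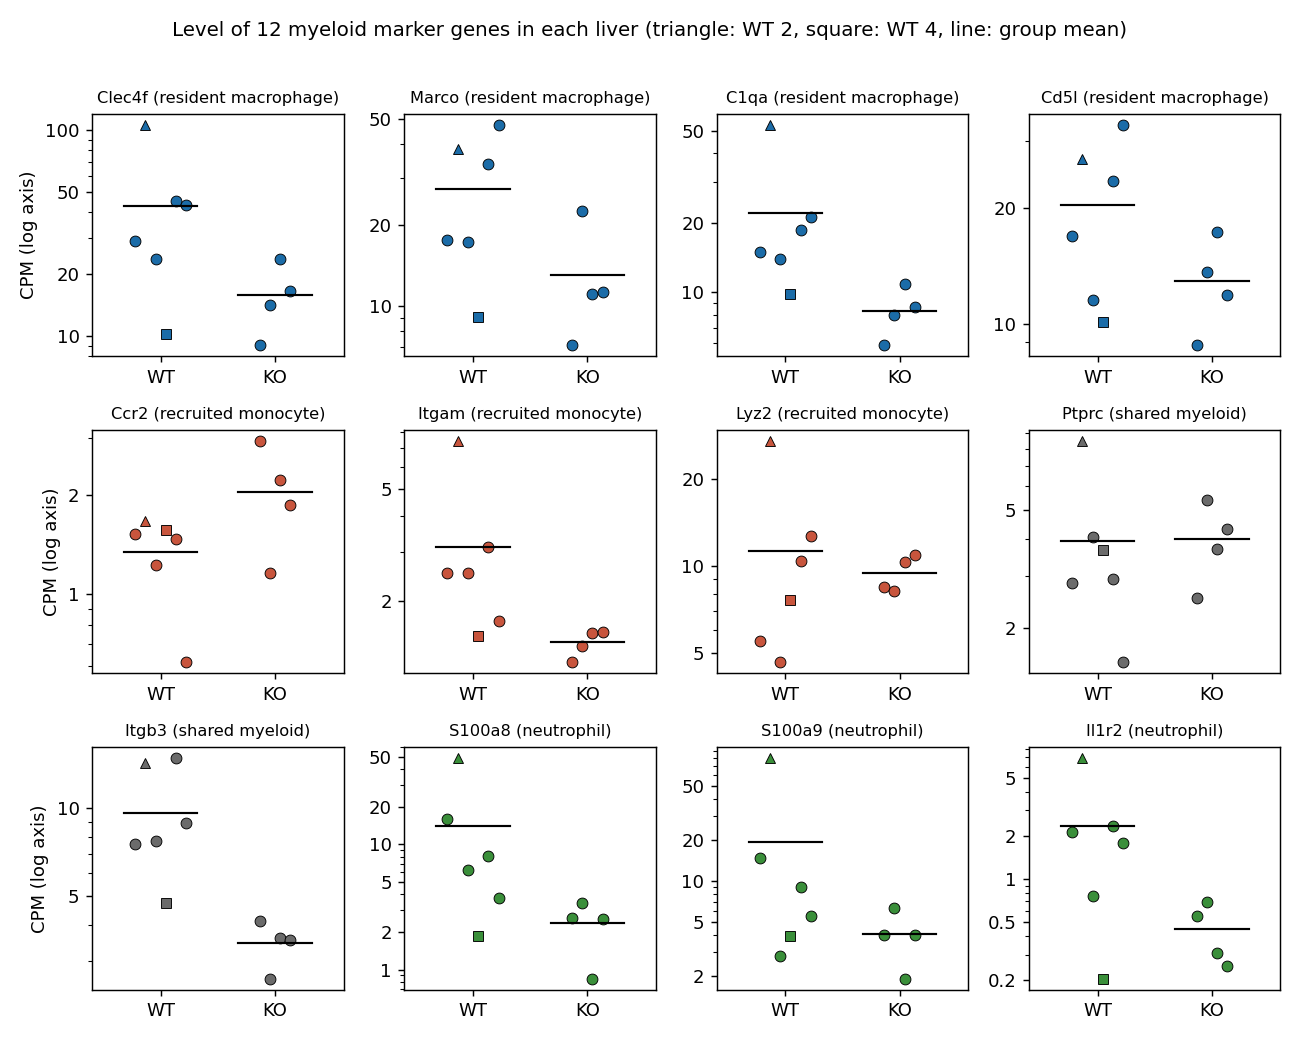
CPM (log axis) of 12 marker genes in each WT and KO liver, 1 point per liver, with WT 2 as a triangle, WT 4 as a square and a line at the group mean. The WT points spread more widely than the KO points in most panels; WT 2 is the top point for Clec4f (107 CPM) and S100a9 (79.7 CPM), and only for Itgb3 do the groups separate.

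The sums of the 5 monocyte genes were 9.86 to 36.9 CPM in WT and 11.5 to 16.7 CPM in KO, and the median log2 fold change of the 4 tested was -0.14. None of the 4 passed the test with edgeR, DESeq2 or limma-voom with or without sample weights, and 1 of them, Itgam, had an unadjusted p under 0.05 (25% of the 4, beside 26.0% of all genes). The 4 genes pointed different ways.

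Ccr2, the receptor through which monocytes leave the marrow and enter tissue, was at 1.52, 1.66, 1.22, 1.57, 1.47 and 0.62 CPM in WT 1 to 6 and at 2.92, 1.16, 2.23 and 1.87 CPM in KO 1 to 4. Of the KO livers, 3 lay above every WT liver and KO 2 lay below most of them. This gave a log2 fold change of 0.61 (SE 0.34, 95% interval -0.07 to 1.28), with an adjusted p of 0.281 from edgeR, and it was above 0 under all 20 other settings tried. Cx3cr1, the fractalkine receptor of patrolling monocytes, was at 0.066 to 1.47 CPM in WT (median 0.86) and at 0.55, 0.23, 1.77 and 0.62 CPM in KO, with a log2 fold change of -0.03 (SE 0.65) whose sign turned under 9 of 19 other settings. At these levels a gene rests on few counts, and neither difference was detectable.

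Lyz2, which encodes the lysozyme of macrophages, monocytes and neutrophils, was at 4.66 to 27.0 CPM in WT (median 9.03) and at 8.44, 8.17, 10.3 and 10.9 CPM in KO. Its log2 fold change was -0.26 (SE 0.42, adjusted p 0.736 from edgeR) with all livers and 0.21 without WT 2. Reads shared with its near copy Lyz1 may have been lost or divided in counting. Itgam, the CD11b chain of the complement receptor on monocytes and neutrophils, was at 2.51, 7.41, 2.52, 1.497, 3.11 and 1.70 CPM in WT 1 to 6 and at 1.21, 1.39, 1.54 and 1.55 CPM in KO 1 to 4, with WT 4 alone inside the KO range. The fitted change was a log2 value of -1.13 (SE 0.44), with an adjusted p of 0.136 from edgeR. In GENCODE, 3450 of its 5024 exonic bases are shared with another gene model on the same strand, so its count is uncertain. Itgax, the CD11c chain of dendritic cells and some macrophages, was too low to test and ranged over 0.38 to 1.55 CPM in WT, against 0.39 to 0.85 CPM in KO.

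Of the 4 roles, the neutrophil genes had the lowest median log2 fold change and the highest median coefficient of variation in WT, at -2.30 and 1.13. Their sums were 43.6, 194, 13.5, 10.8, 28.8 and 19.7 CPM in WT 1 to 6 and 11.6, 18.6, 7.38 and 10.3 CPM in KO 1 to 4. Without WT 2 the other WT livers still ran from 10.8 to 43.6 CPM, of which 3 lay above every KO liver. All 6 genes that could be tested had a log2 fold change below 0, with a range of -2.58 to -0.93. Unadjusted p-values were under 0.05 for 4 of the 6 (66.7%, beside 26.0% of all genes), none passed over all genes with edgeR, and the smallest adjusted p was 0.0986. DESeq2 called 3 of them, S100a8, Cxcr2 and Il1r2, beside 11.8% of all genes, and limma-voom none, with or without sample weights.

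S100a8 and S100a9 encode the 2 chains of calprotectin, the main cytosolic protein of neutrophils, and lie close together on chromosome 3 (chr3:90668978-90670035 on the plus strand and chr3:90692632-90695721 on the minus strand, GRCm38). S100a8 was at 15.9, 49.1, 6.27, 1.84, 8.03 and 3.71 CPM in WT 1 to 6 and at 2.59, 3.39, 0.85 and 2.55 CPM in KO 1 to 4. WT 4 alone lay inside the KO range. The fitted log2 change of S100a8, KO minus WT, was -2.58 (SE 0.87, 95% interval -4.29 to -0.88), with an adjusted p of 0.106 from edgeR. S100a9 was at 14.7, 79.7, 2.83, 3.95, 9.06 and 5.49 CPM in WT and at 4.03, 6.32, 1.92 and 4.04 CPM in KO, and 3 of the 6 WT livers lay within the KO range. Its log2 fold change was -2.24 (SE 0.94), with an adjusted p of 0.166 from edgeR.

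Of the neutrophil receptors, Cxcr2, which guides the cells to CXC chemokines, was at 1.19, 4.08, 0.38, 0.82, 1.47 and 0.85 CPM in WT 1 to 6 and at 0.61, 0.23, 0.23 and 0.44 CPM in KO 1 to 4. WT 3 alone lay inside the KO range. In the fit, the Cxcr2 log2 fold change was -1.90 (SE 0.64), with an adjusted p of 0.101 from edgeR and an unadjusted exact permutation p of 0.0333. Il1r2, the decoy receptor for interleukin-1, was at 2.12, 6.88, 0.76, 0.20, 2.33 and 1.78 CPM in WT and at 0.55, 0.69, 0.31 and 0.25 CPM in KO, with WT 4 below all KO livers. The fitted change of Il1r2 was a log2 value of -2.36 (SE 0.78), with an adjusted p of 0.0986 from edgeR. Csf3r, the receptor for the neutrophil growth factor G-CSF, was at 1.99 to 15.3 CPM in WT (median 4.65) and at 2.15, 5.24, 2.46 and 2.30 CPM in KO, and its groups overlapped widely.

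Among the granule genes the counts were few. Mpo, which encodes the myeloperoxidase made in immature neutrophils of the marrow, had 39 counts (2.95 CPM) in WT 2 and 0 in each of the other 9 livers, where a count of 0 allows up to 0.165 to 0.259 CPM by library, counting error only. Ly6g, the surface antigen that defines mouse neutrophils, was at 0.68 CPM in WT 2, 0.20 in WT 1, 0.086 in WT 5 and 0.077 in KO 2, and was not counted in the other 6 livers. Retnlg, a secreted peptide of neutrophils, was at 25.1 CPM in WT 2 and between 0.38 and 2.45 CPM in the other 5 WT livers, next to 0.31 to 2.003 CPM in KO. Mmp8 and Mmp9, enzymes that neutrophils release to cut collagen, were at 6.96 and 3.63 CPM in WT 2 and at no more than 1.06 and 1.59 CPM elsewhere. In all 5 genes WT 2 was the highest liver.

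Of the 13 genes that several myeloid cell types share, 11 had a log2 fold change below 0, with a median of -0.96 and a range of -1.88 to 0.15. Unadjusted p-values were under 0.05 for 5 of the 13 (38.5%, beside 26.0% of all genes). One gene, Itgb3, passed the test over all genes, and it was the only 1 of the 35 members tested that did (2.86% of the members, beside 1.33% of all genes). It was also the only member whose WT and KO livers did not overlap (2.86%, beside 6.90% of all genes).

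Itgb3 encodes the integrin beta 3 chain, which pairs with the alpha v chain on macrophages, endothelium and other cells and with the alpha IIb chain on platelets. It spans chr11:104608000-104670476 on the plus strand of GRCm38. It was at 7.53, 14.3, 7.72, 4.76, 14.8 and 8.89 CPM in WT 1 to 6 and at 4.14, 2.62, 3.61 and 3.54 CPM in KO 1 to 4. Every WT liver lay above every KO liver, with WT 4 closest to them. Itgb3 was 2.76-fold lower in KO (log2 fold change -1.47, SE 0.32, 95% interval -2.09 to -0.84), with an adjusted p of 0.0479 from edgeR and an unadjusted exact permutation p of 0.0143. The call was lost when any single library other than WT 4 was left out, with adjusted p-values from 0.0632 to 0.151. It was lost too with upper-quartile scaling (0.0513), with limma-voom (0.0560) and with the replicate number as a block (0.1498), so the adjusted p of this gene sat at the threshold while its fold change stayed between -1.605 and -1.193.

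Platelet genes were measured beside it. Pf4, a chemokine of platelet granules, averaged 2.15 ± 0.86 CPM in WT (SD, n = 6), against 0.89 ± 0.55 CPM in KO (SD, n = 4), with a log2 fold change of -1.27 and an adjusted p of 0.122 from edgeR. Ppbp, another platelet chemokine, averaged 1.61 ± 0.86 CPM in WT, against 0.58 ± 0.16 CPM in KO, with a log2 fold change of -1.44 and an adjusted p of 0.103 from edgeR. Itga2b, the alpha IIb chain itself, averaged 6.07 ± 1.63 CPM in WT, against 5.11 ± 0.50 CPM in KO, with a log2 fold change of -0.25. None of the 4 platelet genes tested passed with edgeR, and 2 had an unadjusted p under 0.05 (50%, beside 26.0% of all genes). DESeq2 called Ppbp (11.8% of all genes called) and limma-voom none, with or without sample weights. The summed level of the 9 platelet genes in the table was 10.1 to 23.1 CPM in WT and 7.63 to 14.8 CPM in KO. This sum and the 4 genes tested include Clec1b, which is also counted below as a Kupffer cell marker. Clec1b averaged 4.67 CPM in WT and 3.41 CPM in KO, so the sum is not of platelet genes alone. The part of platelets in the Itgb3 result was not tested.

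Cd68, a lysosomal glycoprotein of macrophages, was at 10.7, 54.8, 4.59, 7.21, 8.46 and 7.81 CPM in WT 1 to 6 and at 3.48, 4.01, 4.84 and 4.66 CPM in KO 1 to 4. WT 3 alone lay inside the KO range, and WT 2 was far above all others. The Cd68 log2 fold change was -1.88 (SE 0.68), with an adjusted p of 0.125 from edgeR. Fcgr4, an activating receptor for IgG whose promoter is shown above, was at 2.38, 8.998, 1.91, 0.88, 1.99 and 2.86 CPM in WT and at 0.72, 0.62, 1.69 and 0.87 CPM in KO, with WT 4 alone inside the KO range. This gave a log2 fold change of -1.70 (SE 0.60), with an adjusted p of 0.112 from edgeR. Reads shared among Fcgr3, Fcgr4 and the inhibitory receptor gene Fcgr2b may have been divided between them. Fcgr2b, which in liver is mostly expressed by sinusoidal endothelium, rose from 12.9 to 26.2 CPM, with a log2 fold change of 1.03 and an adjusted p of 0.0440 from edgeR. No gene of the whole table passed with edgeR when KO 1, KO 2 or KO 3 was left out, Fcgr2b included.

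Csf1r, the growth factor receptor on which macrophages depend, was at 4.49 to 26.4 CPM in WT (median 7.32) and at 3.64, 5.09, 6.84 and 4.98 CPM in KO. In the fit, its log2 fold change was -0.95 (SE 0.48), with an adjusted p of 0.232 from edgeR. Spi1, the gene of PU.1, was at 1.36 to 12.7 CPM in WT (median 2.65) and at 1.5998, 1.62, 2.07 and 2.86 CPM in KO, with a log2 fold change of -1.04 (SE 0.56) and an adjusted p of 0.265 from edgeR. Both genes overlapped between the groups, and leaving out WT 2 brought their log2 fold changes to -0.36 and -0.29.

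The other 6 shared genes with values below 0 had log2 fold changes from -1.37 for the IgG receptor gene Fcgr3 to -0.39 for the scavenger receptor gene Msr1, with adjusted p-values from edgeR between 0.135 and 0.382. They include Tyrobp and Fcer1g, adaptors that signal for Fc and related receptors, at -0.96 and -0.74. WT 2 was the highest liver in 5 of the 6, and KO 3 for Msr1, at 9.84 CPM.

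The other end of the shared genes was formed by Ptprc and Fcgr1. Ptprc, the CD45 phosphatase of all white blood cells, was at 2.84, 8.47, 4.05, 3.67, 2.93 and 1.55 CPM in WT 1 to 6 and at 2.54, 5.39, 3.69 and 4.29 CPM in KO 1 to 4. Its log2 fold change was 0.02 (SE 0.40, 95% interval -0.77 to 0.80). Fcgr1, the high-affinity receptor for IgG, ranged over 0.23 to 1.13 CPM in WT, against 0.54 to 1.08 CPM in KO, with a log2 fold change of 0.15 (SE 0.43).

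**Figure D3:**
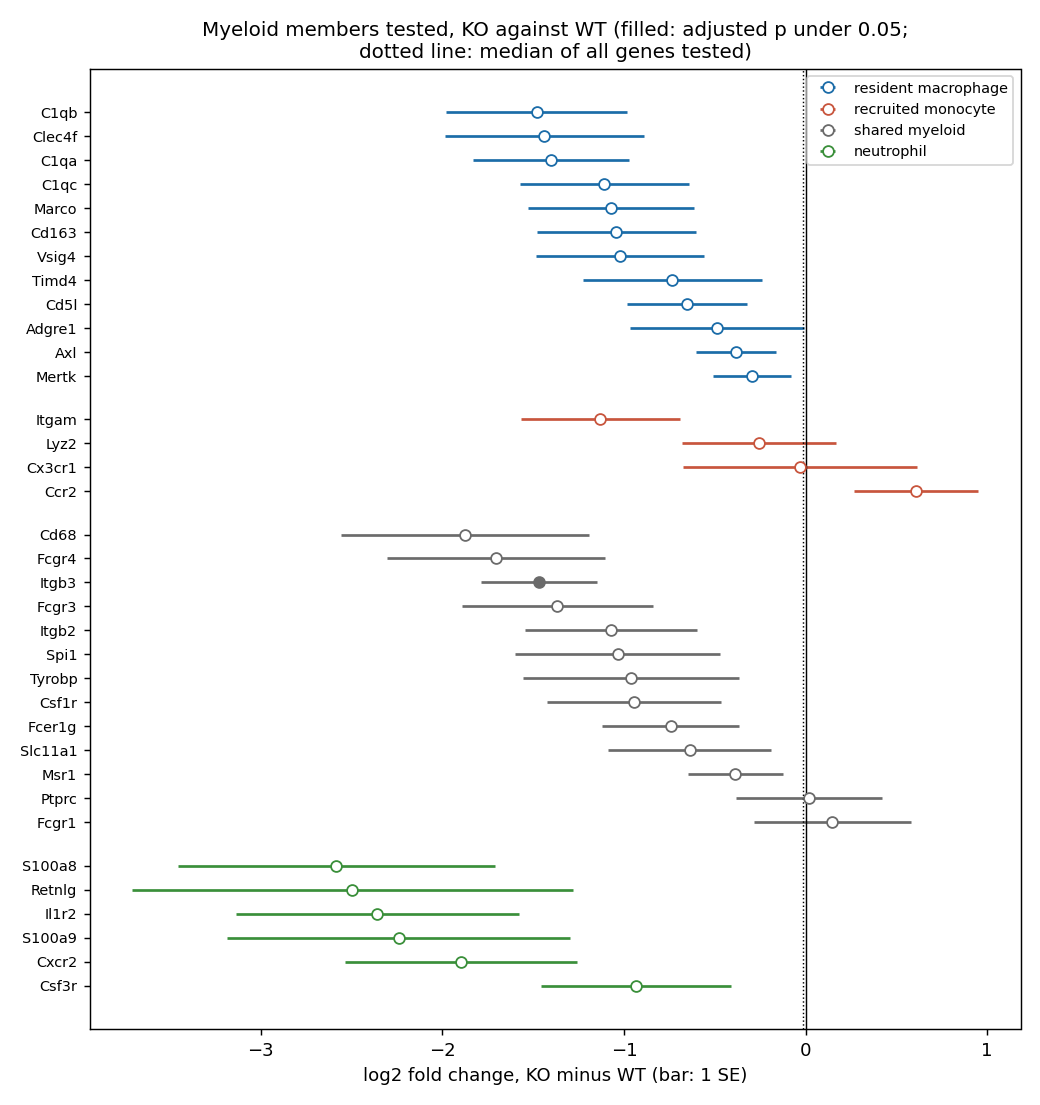
Log2 fold change, KO minus WT (horizontal axis), of the 35 members tested, grouped by role, with a bar of 1 SE on each side and a dotted line at the median of all genes tested. Of the 35, 32 lie left of 0, S100a8 farthest at -2.58, and Itgb3 alone is filled, as the only adjusted p under 0.05.

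Over all roles, 32 of the 35 members tested had a log2 fold change below 0 and the median was -1.04. Unadjusted p-values were under 0.05 for 17 of the 35 (48.6%, beside 26.0% of all genes), and the 3 members above 0 were Ccr2, Fcgr1 and Ptprc. Members of a cell type share their source, so these counts do not describe 35 independent measurements. With no filter on low counts all 41 could be fitted, 38 of them lay below 0 and Itgb3 was again the only one that passed with edgeR.

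The roles were set against each other with 1 gene each, as the difference between 2 genes within a library, on log2(CPM + 0.5). Ccr2 minus Clec4f was -4.25 ± 1.18 in WT (SD, n = 6) and -2.66 ± 0.80 in KO (SD, n = 4), a difference of 1.596 towards the monocyte gene in KO (exact permutation p 0.0571, adjusted over the 3 pairs 0.114). S100a9 minus Clec4f differed by -0.08 between KO and WT, a sign that turned under other settings (exact permutation p 0.905, adjusted 0.905), beside an SD between livers of 1.04 in WT and 1.06 in KO. S100a9 minus Ccr2 differed by -1.68 (exact permutation p 0.0762, adjusted 0.114). None of the 3 passed, and 6 against 4 libraries allow no exact p below 0.00476. Leaving out WT 4 brought the difference for Ccr2 minus Clec4f to 1.97, with an adjusted exact permutation p of 0.0238. WT 4 was 1 of 10 libraries left out in turn. It had the lowest Clec4f of the WT livers, at 10.2 CPM, and lay nearest the KO livers. Its removal therefore moves the groups apart, and this p is no separate support for a difference.

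WT 2 set much of the size of these differences. It was the highest of the 10 livers in 34 of the 41 members, and in 29 of the 35 tested (82.9%, beside 18.8% of all genes). By role this held for 11 of 13 resident macrophage genes, 2 of 5 monocyte genes, 11 of 13 shared genes and all 10 neutrophil genes. Relative to the median of the other 5 WT livers, WT 2 was 3.35-fold higher in the median resident macrophage gene, 2.04-fold in the median monocyte gene, 3.70-fold in the median shared gene and 6.32-fold in the median neutrophil gene, up to 23.2-fold for Retnlg. The median of all genes by the same measure was 0.989. Little or no excess in WT 2 was seen for Ccr2, Cx3cr1, Itgax and Msr1, at 1.13, 0.51, 0.61 and 1.03 times the median.

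Some genes of plasma cells and of immature neutrophils were high in WT 2 as well, and others were not. Igkc, an immunoglobulin light chain made by plasma cells, was at 199 CPM there and at no more than 4.15 CPM elsewhere, and Jchain, which joins secreted immunoglobulins, was at 34.3 against no more than 1.497 CPM. Ngp, a granule protein of immature neutrophils, was at 11.04 against no more than 0.43 CPM. Ighm, the heavy chain of IgM made by B cells, was not highest there, at 2.65 CPM in WT 2 and up to 3.33 CPM elsewhere. Nor were Mzb1 and Sdc1 of the B and plasma cell list, at 0 and 327 CPM in WT 2, against 1.22 CPM in WT 4 and 618 CPM in WT 5. The granule protease genes Elane and Prtn3 were at 0.38 and 1.59 CPM in WT 2, against 0.48 CPM in WT 4 and 2.54 CPM in KO 3. The part of these cells in the member values of WT 2 was not tested.

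Without WT 2, all 12 resident macrophage genes and all 6 neutrophil genes tested were still below 0, but by less. The role medians were -0.56 for resident macrophage, 0.03 for monocyte, -0.36 for shared and -1.04 for neutrophil genes. In that fit 31 of the 34 members tested were below 0, 10 had an unadjusted p under 0.05 (29.4%, beside 22.1% of all genes), and none passed with edgeR. Itgb3 changed little, from -1.47 to -1.32 with an adjusted p of 0.0632 from edgeR, while Retnlg went from -2.50 to -0.41 and S100a9 from -2.24 to -0.83.

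**Figure D4:**
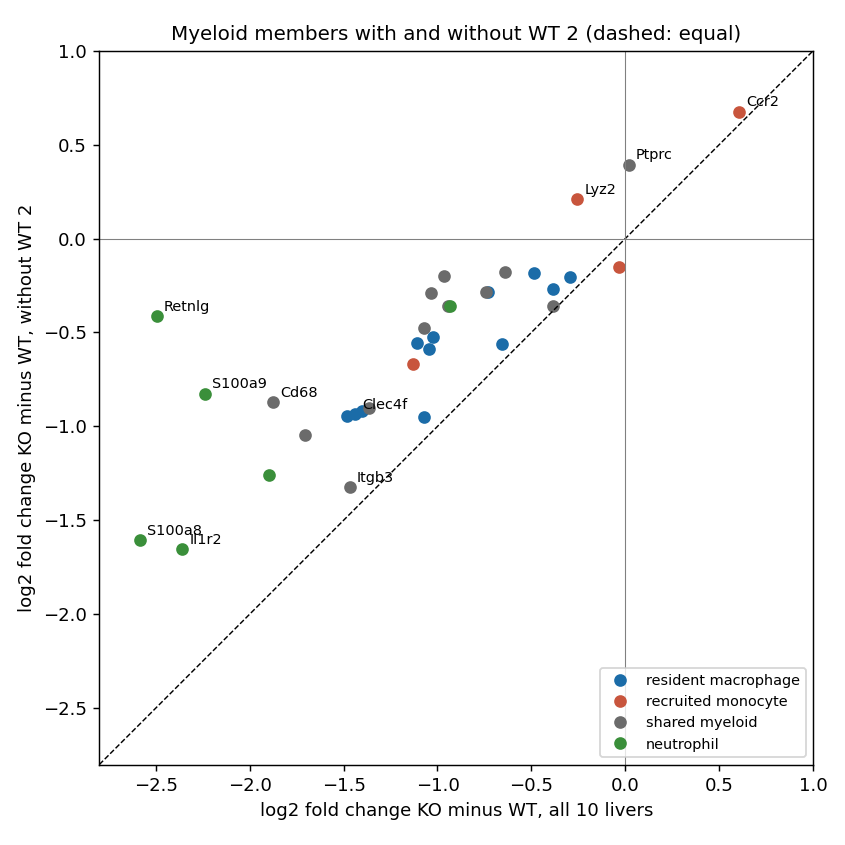
Log2 fold change of each member tested with all 10 livers (horizontal axis) and without WT 2 (vertical axis), 1 point per gene, coloured by role; the dashed line marks equal values. Most points lie above the line, S100a9 (-2.24 against -0.83) and Retnlg (-2.50 against -0.41) the farthest, and Itgb3 (-1.47 against -1.32) lies near it.

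WT 4 stood at the opposite side. It was the lowest WT liver in the sums of the resident macrophage, shared and neutrophil genes, at 83.6, 46.1 and 10.8 CPM, inside the range of the KO livers for each. Without it 11 members passed with edgeR: Clec4f, Marco, C1qa, C1qb, Itgam, Fcgr3, Fcgr4, Itgb3, S100a8, Cxcr2 and Il1r2, each lower in KO. In that fit 21.4% of all genes tested were called. With both WT 2 and WT 4 left out, 9 members passed, each lower in KO, beside 19.4% of all genes. They were Clec4f, C1qa, C1qb, C1qc, Cd68, Fcgr4, Itgb3, S100a8 and Il1r2. No setting tried called a member higher in KO.

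The WT livers varied more than the KO livers in these genes. The median coefficient of variation over the members tested was 0.737 in WT and 0.309 in KO, beside 0.294 and 0.169 over all genes tested. Without WT 2 it was 0.385 over the other 5 WT livers, beside 0.275 over all genes. Neutrophil genes remained the most variable of the 4 roles in those 5 livers, with a median of 0.652.

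The growth factors and chemokines that feed and recruit myeloid cells were taken as a further list. None of the 14 tested passed with edgeR, and 7 had an unadjusted p under 0.05 (50%, beside 26.0% of all genes). DESeq2 called 1 higher and 2 lower in KO (11.8% of all genes called), limma-voom none, and with sample weights 3 were called higher and 3 lower (19.0% of all genes called). Cxcl2, a ligand of Cxcr2, was at 7.34, 8.02, 1.07, 0.54, 1.73 and 1.01 CPM in WT 1 to 6 and at 0.39, 0.15, 0.077 and 0.19 CPM in KO 1 to 4, with no overlap between the groups. Its fitted log2 change, KO minus WT, was -3.91 (SE 0.93), with an adjusted p of 0.0553 from edgeR. Cxcl1, a more abundant ligand of the same receptor, averaged 92.2 ± 67.4 CPM in WT, against 113.6 ± 49.4 CPM in KO, with overlapping groups and a log2 fold change of 0.30 (SE 0.56). Cxcl12, the ligand that holds myeloid cells in the marrow, averaged 102.5 ± 28.9 CPM in WT, against 177 ± 26.6 CPM in KO, again without overlap, with a log2 fold change of 0.79 and an adjusted p of 0.0714 from edgeR. Ccl2, the ligand of Ccr2, averaged 1.59 ± 0.97 CPM in WT, against 1.85 ± 0.59 CPM in KO. Csf1, a ligand of Csf1r, averaged 12.3 ± 3.03 CPM in WT, against 14.1 ± 2.73 CPM in KO. Neither Ccl2 nor Csf1 differed beyond the spread between livers. Il34, the other ligand of Csf1r, averaged 1.29 ± 0.60 CPM in WT, against 0.52 ± 0.11 CPM in KO, with a log2 fold change of -1.30 (SE 0.42) and an adjusted p of 0.0952 from edgeR, and it was called with sample weights.

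Of 16 transcription factors of macrophages and myeloid cells that were tested, none passed with edgeR, and 4 had an unadjusted p under 0.05 (25%, beside 26.0% of all genes). DESeq2 called 2 lower in KO (11.8% of all genes called), limma-voom none, and with sample weights 3 were called higher and 2 lower (19.0% of all genes called). Runx1, a factor of blood cell development, was at 36.5, 44.1, 3.90, 0.68, 6.13 and 3.63 CPM in WT 1 to 6 and at 0.44, 0.39, 0.23 and 0.75 CPM in KO 1 to 4, with an adjusted p of 0.0596 from edgeR. WT 1 and WT 2 held most of its WT signal, as they did for Cxcl2. Nr1h3, the gene of LXR alpha, which maintains Kupffer cell identity and is also made by hepatocytes, averaged 55.7 ± 18.2 CPM in WT, against 84.2 ± 12.2 CPM in KO, with an adjusted p of 0.128 from edgeR. The C/EBP genes pointed different ways. Cebpb averaged 167 CPM in WT and 103 CPM in KO, with an adjusted p of 0.0991 from edgeR. Cebpa averaged 70.6 and 102 CPM (adjusted p 0.134 from edgeR), and Cebpe 1.83 and 3.68 CPM (adjusted p 0.264 from edgeR).

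Further markers outside the 41 were counted in the same way. None of 17 further Kupffer cell markers passed with edgeR, 12 were below 0 and the median was -0.39. Of the 17, 4 had an unadjusted p under 0.05 (23.5%, beside 26.0% of all genes). DESeq2 called 3 lower in KO, Cdh5, Lyve1 and Vcam1 (11.8% of all genes called), and limma-voom none. With sample weights the same 3 were called lower and 1, Paqr9, higher in KO (19.0% of all genes called). Paqr9 averaged 100 CPM in WT and 439 CPM in KO. Several of that list, such as Cdh5 and Lyve1, are also made by sinusoidal endothelium. None of 18 further monocyte and recruited macrophage markers passed with edgeR, DESeq2 or limma-voom with or without weights. Of these, 16 were below 0, the median was -0.54 and 3 had an unadjusted p under 0.05 (16.7%, beside 26.0% of all genes). Only 4 of 18 further neutrophil genes had enough counts to test, and none passed with edgeR, DESeq2 or limma-voom. Their median was -0.44, and 2 had an unadjusted p under 0.05 (50%, beside 26.0% of all genes). With sample weights 1 was called (19.0% of all genes called), the granule protease gene Prtn3. It was higher in KO (0.96 ± 0.49 CPM in WT, 2.03 ± 0.41 CPM in KO, log2 fold change 1.07, adjusted p 0.143 from edgeR). Lcn2 of this list and Fn1 of the monocyte list were at 1536 to 5112 and 861 to 2036 CPM in WT. No member exceeded 107 CPM in any liver. Which cells the reads of Lcn2 and Fn1 came from was not tested, so these lists cannot be read as myeloid cells alone.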

How the data were processed

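The values were whole-number read counts per gene in 10 columns, 1 per library, as the authors deposited them. STAR, HTSeq and DESeq2 with the mouse build mm10 are named in the submitters' processing notes, with versions, annotation and strand setting not given in the sources used here. Exons of Csf1r, Itgam, Folr2, Cx3cr1 and Mpo overlap other gene models, so without the strand setting these counts are uncertain, as are those of near copies (Lyz2, Fcgr3, Fcgr4, Ly6g).

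Genes kept by filterByExpr (13688 of 23056, holding 99.84% of the counts) were scaled by TMM and tested with edgeR 4.0.16 in R 4.3.3 (robust quasi-likelihood test, KO against WT, no covariate), with Benjamini-Hochberg adjustment over all of them and a threshold of 0.05. Too few counts for the test were found in Folr2, Itgax, Mpo, Ly6g, Mmp8 and Mmp9. The 95% intervals are the fold change ± 1.96 SE. Single genes and gene differences were tested with exact two-sided permutation tests over the 210 labelings, on log2(CPM + 0.5). Alternatives were DESeq2 1.42.0, limma 3.58.1 (voom, with and without sample weights), other scalings, filters and pseudocounts, a replicate block and each library left out. No 2 libraries of a group agreed within sampling noise (chi-square per degree of freedom 20.8 to 169). Depth, 12307446 to 17098012 counts, limits genes near 1 CPM.

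Named are role anchors fixed by symbol, members that passed, and in each role the 2 smallest p-values and the extreme fold changes; the remaining members were named after their values were seen. The members, roles and the 15 other cell type and pathway lists were chosen with earlier results of these data known. The result of 1 of these lists, of cholangiocyte genes, is not reported here.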

Additional observations from a re-analysis of the deposited data

Results flagged for a closer look

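A library far from the others of its group was found for 34 of the 89 groups of values examined. For independent groups of normally distributed values, chance gives about 1 in 20. The values examined were CPM without a log, and skewed values can be flagged more often, so the 34 cannot be set against that rate. These groups are not independent, since they share the same libraries, and for Mpo in WT and Ly6g in KO only 1 library had any count, which fixes the outcome. WT 2 was that library in 29 of the 34, always as the highest. Among resident macrophage genes it stood at 106.7 CPM for Clec4f, 18.3 for Vsig4, 27.22 for Cd163, 53.38 for C1qa, 53.23 for C1qb and 44.69 for C1qc. For the monocyte genes Itgam and Lyz2 it stood at 7.41 and 27.0 CPM. Of the shared genes, WT 2 was at 26.39 CPM for Csf1r, 54.82 for Cd68, 10.36 for Slc11a1, 8.998 for Fcgr4, 13.08 for Itgb2, 12.7 for Spi1, 15.73 for Tyrobp, 25.71 for Fcer1g and 8.469 for Ptprc. Of the neutrophil genes it was at 49.08 CPM for S100a8, 79.7 for S100a9, 15.27 for Csf3r, 4.083 for Cxcr2, 2.949 for Mpo, 0.6806 for Ly6g, 25.1 for Retnlg, 6.957 for Mmp8 and 6.881 for Il1r2. Its summed levels stood apart at 36.9 CPM for the monocyte, 210 for the shared and 194.3 for the neutrophil genes.

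The other 5 were single genes. Itgax was at 1.554 CPM in WT 5, the highest WT liver. In KO, Itgb2 was highest in KO 3 at 2.843 CPM, Csf3r and Ly6g were highest in KO 2 at 5.239 and 0.07705 CPM, and Mmp9 was lowest in KO 4 at 0.2488 CPM.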

How the results depend on the processing

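The number of genes called, 182, became 1618 with DESeq2, 283 with limma-voom, 2606 with limma-voom and sample weights, 0 to 2893 with 1 library left out, and 2594 with WT 2 and WT 4 both left out, a setting chosen after seeing the data. The number of members called, 1, became 0 with upper-quartile scaling, 8 with DESeq2, 0 with limma-voom, 6 with sample weights, 0 to 11 with 1 library left out and 9 with WT 2 and WT 4 out. With the replicate block, 1 gene and 0 members were called. Same-numbered WT and KO libraries correlated at 0.18, 0.074, -0.027 and -0.010, and 2 of the 4 KO libraries correlated best with their own number. So few correlations cannot decide whether the numbers pair the libraries.

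The median log2 fold change of the resident macrophage genes stayed below 0, at -1.188 to -0.5582 with 1 library left out (the highest without WT 2) and -0.6876 with the replicate block. That of the monocyte genes turned to 0.03833 with limma-voom, 0.03626 with sample weights, 0.2802 with the replicate block and 0.02724 with WT 2 and WT 4 out, and ran from -0.5182 to 0.02879 with 1 library left out. That of the shared genes ran from -1.15 to -0.3593, and that of the neutrophil genes from -2.531 to -1.044, each highest value being the one without WT 2. The neutrophil median was -1.119 with sample weights and -0.9826 with WT 2 and WT 4 out. Single genes that changed sign were near 0. Cx3cr1 was at 0.01016 with upper-quartile scaling, 0.06756 with limma-voom, 0.4774 with the replicate block and -0.7407 to 0.2606 with 1 library left out. Lyz2 was at 0.009096, 0.1258 and 0.158 with limma-voom, sample weights and the replicate block, 0.1938 with WT 2 and WT 4 out and -0.4169 to 0.2106 with 1 library left out. Fcgr1 ran from -0.09127 to 0.2578 and Ptprc from -0.1624 to 0.3934 with 1 library left out, and Ptprc was at -0.1859 with the replicate block. The difference between KO and WT ran from 1.202 to 1.971 for Ccr2 minus Clec4f and from -0.3402 to 0.4098 for S100a9 minus Clec4f with 1 library left out, and the latter was 0.03233 with a pseudocount of 2 CPM. The cause was not tested. Of the other named members, all kept the direction of the log2 fold change under every setting run. Members near or under 1 CPM rest on few counts, which limits what can be seen for Cx3cr1, Fcgr1 and Ly6g. The 6 members with an exact permutation p under 0.05 became 17 without WT 4, and 1 or 2 without KO 1, KO 2 or KO 4. Without WT 4, 21.4% of all genes tested passed with edgeR. The share of all genes under the exact test was not computed, so these counts do not set the members apart.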

Other observations

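Genes of the cells that line and surround the sinusoids were counted in the same way. Of 14 sinusoidal endothelium genes tested, 1 passed with edgeR, the Fc receptor gene Fcgr2b, and 10 of the 14 were above 0, with a median log2 fold change of 0.23. Unadjusted p-values were under 0.05 for 5 of them (35.7%, beside 26.0% of all genes). DESeq2 (11.8% of all genes called) and limma-voom with sample weights (19.0%) both called Fcgr2b and Clec4g higher and Cdh5 and Lyve1 lower in KO. Plain limma-voom called Fcgr2b alone (2.07% of all genes called). Clec4g, a lectin of these endothelial cells, averaged 12.0 ± 1.74 CPM in WT (SD, n = 6), against 21.0 ± 6.51 CPM in KO (SD, n = 4), with an adjusted p of 0.0617 from edgeR. Lyve1, a hyaluronan receptor of the same cells, averaged 19.4 ± 15.8 CPM in WT, against 5.70 ± 0.77 CPM in KO, with an adjusted p of 0.0642 from edgeR, so the list did not point one way. None of 14 stellate cell and fibroblast genes passed with edgeR, DESeq2 or limma-voom (0 with an unadjusted p under 0.05), and the median was 0.12.

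Tat, the hepatocyte enzyme that breaks down tyrosine, was lower in KO (3065 ± 1067 CPM in WT, 1035 ± 322 CPM in KO, adjusted p 0.0460 from edgeR), the only 1 of 12 hepatocyte genes to pass. No gene passed with edgeR when KO 1, KO 2 or KO 3 was left out, so this call is lost there. It was lost without WT 2 as well. Of the 12, 5 had an unadjusted p under 0.05 (41.7%, beside 26.0% of all genes). DESeq2 called Apoa1 higher and Tat and Ass1 lower (11.8% of all genes called), and limma-voom Tat alone (2.07%). With sample weights Cyp3a11, Tat and Ass1 were called lower (19.0% of all genes called). None of 4 dendritic cell, 3 mast cell and basophil, 7 erythroid and 4 B and plasma cell genes tested passed with edgeR. With an unadjusted p under 0.05 were 1, 1, 1 and 3 of them, in that order (25%, 33.3%, 14.3% and 75%, beside 26.0% of all genes). DESeq2 called 1 erythroid gene, Tfrc, and 1 of the plasma cell list, Sdc1, which hepatocytes also express (11.8% of all genes called). In these lists limma-voom called none, and with sample weights Tfrc, Sdc1 and the mast cell gene Kit were called (19.0% of all genes called). None of 16 T and NK cell genes had enough counts to test.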
